A study of Rattus norvegicus with 62 samples.

Results

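The genes studied are 41 rat genes for fatty acid oxidation, covering the steps that activate a fatty acid, carry it into mitochondria or peroxisomes and cut it down to acetyl-CoA. A gene was measured where the array held a probe set (a group of short probes read out as 1 signal) annotated with that gene alone, and the brightest such probe set stood for the gene. This gave 40 of the 41 genes, out of 14217 genes measured in the same way. All 40 passed the filter on low signals, which kept probe sets with a mean log2 signal of at least 5.03, and Acaa1a, a peroxisomal thiolase, was not measured because its probe set names several genes. By location 24 members are mitochondrial, 5 are peroxisomal, and 11 act at both places or at other membranes such as the cell surface and the endoplasmic reticulum.

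Male Wistar rats were given rosiglitazone by mouth every day for 14 days, at 10 or 80 mg/kg, or vehicle only (0 mg/kg), and cardiac muscle was taken 6, 24, 168 or 336 h after the last dose. Rosiglitazone is an insulin-sensitising drug that activates the nuclear receptor PPAR gamma. The 12 groups of dose and time held 62 arrays in all. Vehicle had 4, 6, 5 and 5 arrays at 6, 24, 168 and 336 h, the 10 mg/kg dose 5, 5, 5 and 6, and the 80 mg/kg dose 5, 5, 6 and 5. No genetic change is named for any group, all groups share the strain, sex and daily dosing, and the age of the rats is not given in the sources used here. The labels do not say whether the samples of a group are separate animals, and the p-values therefore reflect sample-to-sample spread, which may be technical. The tissue was heart cut lengthwise, a mixture of cells, and in such bulk samples fewer cells of a type and less RNA per cell cannot be told apart.

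In the heart, fatty acids are the main fuel. Mitochondria shorten them in rounds of 4 reactions (dehydrogenation, hydration, a second dehydrogenation and thiolysis), after the carnitine shuttle has moved the activated acyl chain across the inner membrane, and electrons pass through the electron transfer flavoprotein to the respiratory chain. Peroxisomes start on very long and branched chains with an oxidase that makes hydrogen peroxide, and hand shortened products to mitochondria. Many genes of both pathways are textbook targets of the PPAR family of nuclear receptors, which bind DNA together with RXR at paired AGGTCA-like sites.

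The deposited signals were not on a common scale, with array medians of 31.1 to 86.9, so log2 signals were quantile normalized, and every level below is a normalized log2 signal and every difference is in log2 units, relative to the other probe sets. In 10 arrays the atrial light chain Myl7 reached a log2 signal of 9 or more (1 vehicle, 4 of the 10 mg/kg and 2 of the 80 mg/kg arrays at 6 h, and 3 of the 80 mg/kg arrays at 24 h). In 5 others, at 6 and 24 h, the actin control probes had a raised 3′ to 5′ difference, a sign of shorter RNA. None of these 15 arrays was taken at 168 or 336 h. By their first 2 principal components the arrays fell into 3 clusters, and all 16 arrays of 336 h were in a single cluster, while the vehicle arrays of 6 and 24 h were all in the other clusters, so for these times against 336 h time and cluster cannot be told apart. Of the 5 vehicle arrays of 168 h, 1 was in the cluster of 336 h. The 13 measured cardiomyocyte markers of 14 listed were all above the filter.

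Promoters were read where the RefSeq table (build GRCr8) held them, for 35 of the 40 measured members, over the 250 bases before each gene's start. They are shown for 3 members. Acadm and Eci1 are mitochondrial enzymes that were lower together late after the drug. Pecr is a peroxisomal enzyme that differed by a like amount at every time. Decr1, which was also lower late, was not among the 35. Capitals mark the receptor core site AGGTCA, or TGACCT where it lies on the other strand.
Acadm: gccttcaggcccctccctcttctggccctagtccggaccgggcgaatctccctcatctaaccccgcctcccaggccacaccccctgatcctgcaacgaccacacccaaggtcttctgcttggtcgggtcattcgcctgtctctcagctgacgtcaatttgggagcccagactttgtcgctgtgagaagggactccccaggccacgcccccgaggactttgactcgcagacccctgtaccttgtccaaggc
Eci1: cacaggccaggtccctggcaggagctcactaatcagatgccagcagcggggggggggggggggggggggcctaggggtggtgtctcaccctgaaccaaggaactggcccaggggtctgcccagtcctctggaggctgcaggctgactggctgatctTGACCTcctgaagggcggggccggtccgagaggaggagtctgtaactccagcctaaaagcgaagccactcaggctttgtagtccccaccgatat
Pecr: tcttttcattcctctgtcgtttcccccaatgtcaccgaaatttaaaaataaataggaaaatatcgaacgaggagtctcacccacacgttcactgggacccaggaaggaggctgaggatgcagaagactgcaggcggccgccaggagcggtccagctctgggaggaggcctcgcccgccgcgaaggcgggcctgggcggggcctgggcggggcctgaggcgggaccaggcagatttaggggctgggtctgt
The Acadm sequence is chr2:245542865-245543114 on the minus strand, that of Eci1 chr10:13961000-13961249 on the plus strand and that of Pecr chr9:81375807-81376056 on the minus strand, each written 5′ to 3′ along the gene. Only Eci1 of these 3 held the core site, 94 bases before the start.

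Over the 35 promoters the core site AGGTCA on either strand was in 5 (14.3%; Acad11, Acadvl, Echs1, Eci1 and Hsd17b4), against 14.1% of 33469 promoters in the table. The direct repeat AGGTCANAGGTCA, which contains that site, was in 0 of 35, against 0.0508%, and the looser AGGNCANAGGNCA in 0, against 0.368%. The GC box GGGCGG was in 26 (74.3%), against 30.5% of all promoters and 55.3% of those of genes on the array, and CCAAT in 13 (37.1%), against 34%. Matches are letters in these windows and not evidence of binding.

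The pattern that ran through the members was a small shortfall at the late times after either dose. After 10 mg/kg the members' medians at 168 and 336 h were −0.09 and −0.11, with 29 and 31 of 40 below 0. The higher dose is described first. At 6 and 24 h after the last 80 mg/kg dose the median difference of the 40 members from vehicle was −0.01 and −0.00, with 22 and 20 members below 0, against 48.1% and 54.4% of all probe sets tested. At 168 h the median was −0.11 with 31 of 40 members below 0, against 51.6% of all probe sets, and at 336 h it was −0.16, again with 31 of 40 below 0, against 51.1%. The late values rest on arrays that are not shared between the times. In them, 27 of the 40 members (67.5%) were below vehicle at both 168 and 336 h, against 30% of all probe sets, and 5 were above it at both.

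The same was visible array by array. For each array the median over the 40 members of the difference from the vehicle mean of that time was taken. Among vehicle arrays it ran from −0.049 to 0.064 at 336 h and from −0.015 to 0.034 at 168 h. All 5 arrays of 80 mg/kg at 336 h lay below 0, from −0.231 through a median of −0.154 to −0.115, and did not overlap the vehicle arrays. At 168 h 5 of 6 lay below 0, from −0.228 through −0.083 to 0.015, and these overlapped vehicle. At 6 h the 80 mg/kg arrays ran from −0.078 to 0.097 and at 24 h from −0.121 to 0.041, both overlapping vehicle. The 10 mg/kg arrays were compared with the same vehicle arrays, so the doses are not independent of each other. At 168 h they ran from −0.103 through −0.094 to 0.001, with 4 of 5 below 0, and overlapped vehicle. At 336 h they ran from −0.149 through −0.129 to −0.079, with 6 of 6 below 0, and did not overlap vehicle.

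The early values at 6 h rest in part on arrays that stand apart. Without the high-Myl7 arrays the members' median at 6 h was −0.00 for 80 mg/kg and −0.16 for 10 mg/kg, the latter from the 1 array that remained. Without the high-actin arrays as well it was −0.08 (32 of 40 below 0) and −0.17 (32 of 40). These values rest on few arrays. Of the 4 vehicle arrays at 6 h, 1 was high-Myl7 and 1 high-actin, and of the 5 of 80 mg/kg 2 were high-Myl7 and 1 high-actin.

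These values depend on the scale as follows. On the deposited scale the median of all probe sets itself differed from vehicle by 0.37, −0.30, −0.21 and 0.04 at the 4 times after 80 mg/kg, so that the members' median was 0.32, −0.36, −0.28 and −0.10 (above 0 at 6 h). Relative to all probe sets, the members' median on that scale was −0.05, −0.05, −0.07 and −0.14, against −0.02, 0.02, −0.10 and −0.15 after quantile normalization, so the late step was smaller there. For 10 mg/kg at 336 h the members' median turned to 0.03 on the deposited scale, where that of all probe sets was 0.14.

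**Figure D1:**
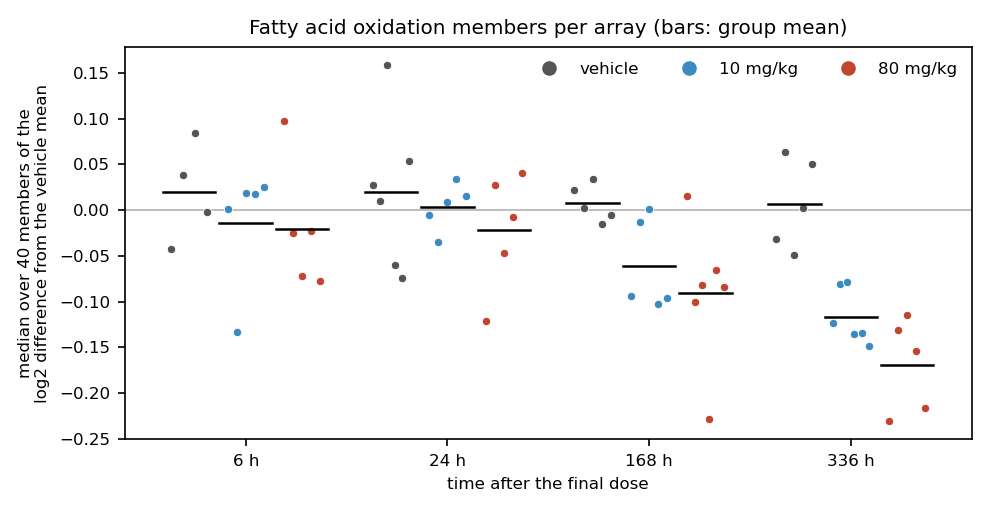
Each point is 1 array, placed by the median over the 40 members of its log2 difference from the vehicle mean of the same time (vertical axis) and by hours after the final dose (horizontal axis), with grey for vehicle, blue for 10 mg/kg, red for 80 mg/kg and a bar for the group mean. All 5 arrays of 80 mg/kg at 336 h lie between −0.231 and −0.115, and the vehicle arrays of that time between −0.049 and 0.064.

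Single members were tested with limma in 1 fit of all 62 arrays and 12 group means, with p-values adjusted by Benjamini-Hochberg over 18625 probe sets and a call at an adjusted p under 0.05. Averaged over the 4 times, 1 of the 40 members was called for 80 mg/kg against vehicle, where 0.123% of all probe sets were called lower, and 13 members were lower at an unadjusted p under 0.05, against 5.07%. The median of the members was −0.09, with 33 below 0 against 51% of all probe sets. No member was called at any single time, where 0.0537%, 0.14%, 0.0537% and 0.29% of all probe sets were called at 6, 24, 168 and 336 h. By unadjusted p under 0.05, 0 members were lower at 6 h (2.7% of all probe sets), 3 at 24 h (6.39%), 8 at 168 h (2.72%) and 15 at 336 h (3.24%).

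The called member was Acadm, the medium-chain acyl-CoA dehydrogenase, which starts each round of shortening on medium chains in the mitochondrion (mean log2 12.87). Its vehicle arrays read 12.89, 13.03, 12.98, 12.997 and 12.997 at 168 h and 12.98, 13.07, 12.93, 13.01 and 13.003 at 336 h. After 80 mg/kg the 6 arrays of 168 h had a lowest value of 12.64, a median of 12.77 and a highest of 12.80, and the 5 of 336 h read 12.62, 12.82, 12.82, 12.75 and 12.66. At both late times every treated array lay below every vehicle array. At 6 h the vehicle arrays read 12.90, 12.96, 13.10 and 12.997 and the 80 mg/kg arrays 12.97, 12.77, 12.98, 12.80 and 12.97, which overlap. The 24 h arrays overlapped too, with vehicle from 12.65 through 12.86 to 12.98 and 80 mg/kg at 12.89, 13.10, 12.80, 12.70 and 12.89.

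Over the 4 times Acadm fell by 0.14 (SE 0.036, 95% interval −0.21 to −0.070, 0.907-fold, limma adjusted p = 0.0473, 20 vehicle and 21 treated arrays), and 18 of 21 treated arrays lay below the vehicle mean of their time. The single-time differences were −0.09, 0.03, −0.24 and −0.27, with limma adjusted p of 0.354 at 168 h and 0.112 at 336 h. The call over the 4 times lay close to the threshold. It was lost in 26 of 41 fits that each left out 1 array, with adjusted p of 0.0129 to 0.0922 over all 41, and also on the deposited scale (0.99988), with median scaling (0.290), with no filter (0.107) and without the high-Myl7 arrays, where the difference was −0.11 (limma adjusted p = 0.367).

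Because the shortfall lay at the late times, the mean difference at 168 and 336 h was added as a contrast after the data were seen. These times hold 10 vehicle and 11 treated arrays at 80 mg/kg, none of them among the high-Myl7 or high-actin arrays. In this contrast 3 members were called lower, where 26 of 18625 probe sets (0.14%) were. Acadm fell by 0.25 (SE 0.050, limma adjusted p = 0.00235), Eci1 by 0.31 (SE 0.060, limma adjusted p = 0.00249) and Decr1 by 0.47 (SE 0.097, limma adjusted p = 0.00527), each with 11 of 11 treated arrays below the vehicle mean of their time. The median of the 40 members in this contrast was −0.12 (33 below 0, against 51.8% of all probe sets). All 3 stayed called when each of the 21 arrays was left out in turn. The contrast was picked on these same arrays, so its p-values and the left-out fits are not independent support for it. With arrays scaled by their medians alone none was called (Acadm −0.20, Eci1 −0.25 and Decr1 −0.42, with limma adjusted p of 0.591, 0.364 and 0.198), and on the deposited scale the adjusted p was 0.99996 for each.

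Eci1 and Decr1 belong to the small group of enzymes that handle double bonds. Eci1, the mitochondrial enoyl-CoA delta isomerase, shifts a misplaced double bond so that an unsaturated chain can go on being shortened (mean log2 11.59). Its promoter is the one above that holds the core site. Vehicle arrays of Eci1 read 11.76, 11.92, 11.64, 11.80 and 11.71 at 168 h and 11.63, 11.89, 11.79, 11.68 and 11.81 at 336 h. After 80 mg/kg it ran from 11.28 through 11.49 to 11.73 at 168 h, which overlaps vehicle, and read 11.38, 11.50, 11.44, 11.43 and 11.39 at 336 h, all below the lowest vehicle array. Its difference at 336 h was −0.33 (SE 0.087, limma adjusted p = 0.0938). A second, dimmer probe set for Eci1 (mean log2 6.22) differed by 0.07 over the same late arrays, with 0.25 at 168 h and −0.11 at 336 h, and with all probe sets of the gene averaged the late difference was −0.12 (limma adjusted p = 0.854).

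Decr1, the mitochondrial dienoyl-CoA reductase, acts on chains with more than 1 double bond (mean log2 11.86). Its vehicle arrays read 12.09, 12.20, 12.06, 12.05 and 12.18 at 168 h and 12.03, 12.14, 12.09, 12.001 and 12.01 at 336 h. The 80 mg/kg arrays ran from 11.25 through 11.62 to 11.88 at 168 h and read 11.57, 11.85, 11.79, 11.64 and 11.34 at 336 h. No treated array reached the lowest vehicle array at either time. The spread was wider after the drug, with an SD of 0.20 against 0.059 for vehicle at 336 h. The differences were −0.52 at 168 h (SE 0.13, limma adjusted p = 0.188) and −0.41 at 336 h (SE 0.14, limma adjusted p = 0.335), against 0.05 at 6 h and 0.01 at 24 h.

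The other double bond enzymes were measured as well. Ech1, a dienoyl-CoA isomerase of mitochondria and peroxisomes (mean log2 12.54), read 12.73, 12.83, 12.73, 12.74 and 12.83 in vehicle at 336 h and 12.47, 12.65, 12.58, 12.50 and 12.44 after 80 mg/kg, with no overlap and a difference of −0.24 (limma adjusted p = 0.458). Eci2, the isomerase found at both places (11.20), had differences of −0.10 and −0.12 at 168 and 336 h. With all 4 genes below 0 at both late times, double bond handling had medians of −0.25 and −0.29, the lowest of the 6 roles at each of those times, on only 4 genes. The genes were grouped by role with earlier results of these data known, and no test was run on the grouping.

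**Figure D2:**
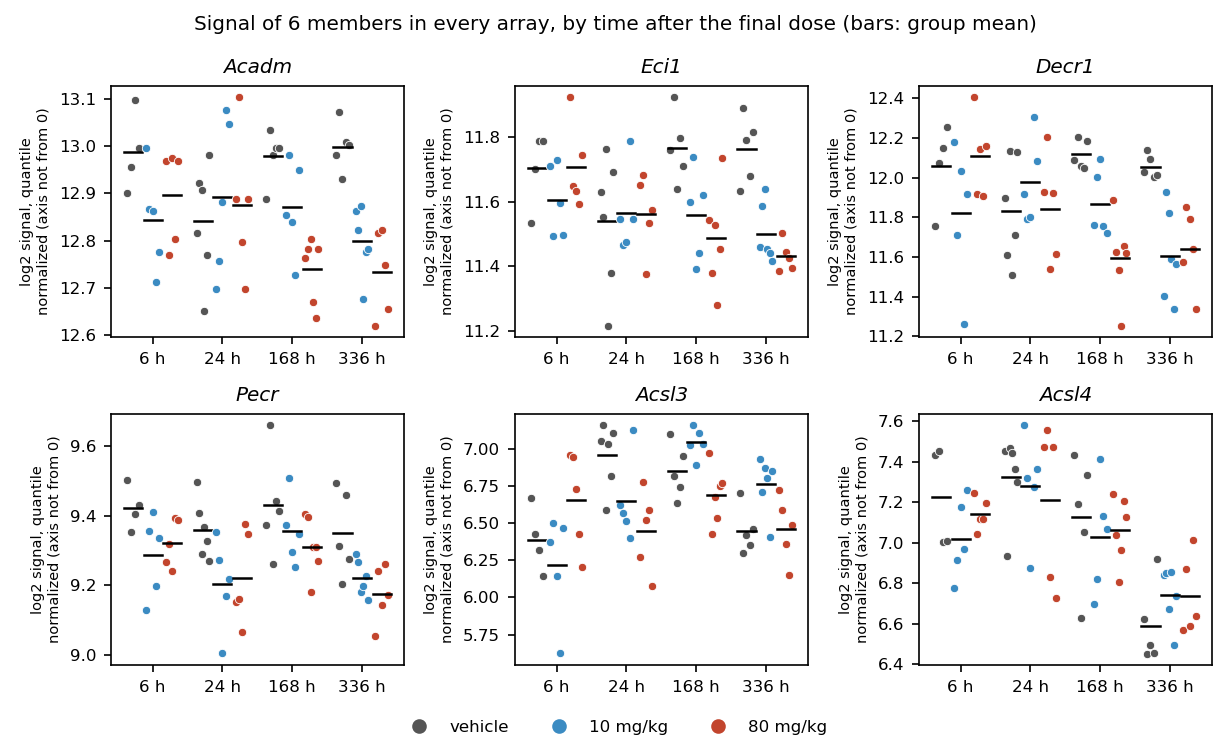
Normalized log2 signal of 6 members in every array (vertical axis, not from 0) by hours after the final dose (horizontal axis), grey for vehicle, blue for 10 mg/kg, red for 80 mg/kg, with a bar for the group mean. At 336 h the 5 red points of Acadm, Eci1 and Decr1 all lie under the 5 grey points, while the grey points of Acsl4 sit between 6.45 and 6.92 at 336 h and between 6.94 and 7.47 at 24 h.

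Among the enzymes of mitochondrial chain shortening the differences at 336 h leaned the same way. Over the 12 genes the median was −0.13 at 168 h with 9 below 0 and −0.17 at 336 h with 10 below 0. The acyl-CoA dehydrogenases are ordered by chain length. Acadvl, for very long chains (mean log2 11.51), differed by −0.13 at 168 h and −0.23 at 336 h (limma adjusted p = 0.443), Acadl, for long chains (13.22), by −0.07 and −0.02, and Acads, for short chains (10.52), by 0.01 and 0.19. Of these 3 the groups did not overlap at 336 h for Acadvl. Acad9 (9.13), which also helps assemble complex I, differed by 0.12 and −0.15, Acad10 (7.995) by −0.15 and −0.38, and Acad11 (6.63), which takes long hydroxylated chains, by 0.27 and 0.05.

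The later steps of a round gave similar small values. Hadha and Hadhb are the subunits of the trifunctional protein, which carries out the last 3 reactions on long chains. Hadha (mean log2 11.82) read 12.04, 12.21, 11.98, 12.22 and 12.03 in vehicle at 336 h and 11.66, 11.82, 11.88, 11.80 and 11.71 after 80 mg/kg, without overlap, a difference of −0.33 (limma adjusted p = 0.494), and Hadhb (13.02) differed by −0.16. Hadh, the short-chain hydroxyacyl-CoA dehydrogenase (12.32), differed by −0.25 at 168 h and −0.16 at 336 h, and Acaa2, the mitochondrial thiolase (12.23), by −0.21 and −0.32. None of these passed the adjusted threshold. Dimmer probe sets of Hadha (mean log2 5.85) and Hadh (5.07) went the other way over the late times, by 0.13 and 0.53, and were not called.

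Echs1, the short-chain enoyl-CoA hydratase (mean log2 10.86), was low at another time. Its vehicle arrays at 24 h ran from 10.86 through 11.13 to 11.31, and the 80 mg/kg arrays read 10.64, 10.69, 10.75, 10.94 and 10.46, which overlap in 1 array. The difference there was −0.41 (SE 0.14, limma adjusted p = 0.263), and at 168 and 336 h it was −0.05 and −0.18. Of the 5 arrays of 80 mg/kg at 24 h, 3 were high-Myl7 arrays, and the part of atrial tissue in this value was not tested.

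Activation and entry into the mitochondrion also leaned below 0 at the late times. The median of the 11 genes was −0.12 at 168 h with 10 below 0 and −0.13 at 336 h with 8 below 0. Cpt1b, the muscle form of the outer-membrane carnitine palmitoyltransferase and the controlled step of entry (mean log2 11.93), had differences of −0.01, −0.07, −0.01 and −0.04 at the 4 times. Acsl1, the main acyl-CoA synthetase of heart (12.27), had 0.11, 0.02, −0.12 and −0.13. Slc25a20, the carnitine-acylcarnitine carrier of the inner membrane (10.62), had 0.03, 0.17, −0.29 and −0.26. The arrays of Slc25a20 did not overlap at either late time: vehicle read 10.77, 10.91, 10.74, 10.67 and 10.85 at 336 h and 80 mg/kg 10.45, 10.60, 10.64, 10.38 and 10.56, a difference with limma adjusted p of 0.641.

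Cpt2, the inner-membrane transferase that returns the chain to coenzyme A (mean log2 10.51), differed by −0.08 at 168 h and by −0.22 at 336 h, where vehicle arrays at 10.85, 10.89, 10.89, 10.93 and 10.96 stood above treated arrays at 10.60, 10.69, 10.84, 10.65 and 10.63. Slc22a5, the cell-surface carnitine transporter (6.89), differed by −0.32 and −0.42 at the late times (limma adjusted p = 0.412 at 336 h), and its groups overlapped because 1 treated array of 336 h read 7.09 against 6.87 to 7.20 in vehicle. Mlycd, the decarboxylase that removes malonyl-CoA, the inhibitor of the entry step (9.57), differed by −0.05 and −0.20. Among the other synthetases, Acsl5 (7.56) had late differences of 0.02 and 0.08 and Acsl6 (8.16) of −0.16 and −0.03.

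The members that pass on electrons from the dehydrogenases gave small differences, and none was called. Etfb, the beta subunit of the electron transfer flavoprotein (mean log2 12.50), read 12.71, 12.50, 12.70 and 12.63 in vehicle at 6 h and 12.50, 12.50, 12.54, 12.73 and 12.64 at 168 h, and the 80 mg/kg arrays at 168 h ran from 12.33 through 12.44 to 12.59. These groups overlapped. Over the 4 times the difference of Etfb was −0.12 (SE 0.036, limma adjusted p = 0.171), with 17 of 21 treated arrays below the vehicle mean of their time. By time it was −0.15, −0.08, −0.13 and −0.10, so the largest was at 6 h. Etfa, the alpha subunit (12.09), differed by −0.06 and −0.10 at the late times, and Etfdh, the membrane oxidoreductase that hands the electrons to ubiquinone (11.22), by −0.18 and −0.13.

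Enzymes for branched and short acyl-CoA did not share the late direction, with a median of 0.09 and 1 of 5 below 0 at 168 h, and −0.10 with 3 of 5 at 336 h. Ivd, which oxidises isovaleryl-CoA from leucine (mean log2 10.59), differed by 0.09 and −0.10, Hsd17b10, a hydroxyacyl-CoA dehydrogenase of isoleucine breakdown (11.68), by −0.03 and 0.02, and Acat1, the acetoacetyl-CoA thiolase (12.14), by 0.10 and 0.05, while a second probe set of Acat1 (10.25) averaged −0.15 over these times. Acad8, the isobutyryl-CoA dehydrogenase of valine breakdown (7.67), differed by 0.00 and −0.27, with no overlap at 336 h. Acadsb, the short/branched-chain dehydrogenase (6.37), had the largest difference of any member and time after 80 mg/kg, 0.94 at 24 h (SE 0.40, limma adjusted p = 0.379). It rests on noisy vehicle arrays, which ran from 2.97 through 6.15 to 6.68 against 6.65, 6.91, 6.35, 6.48 and 5.95 after 80 mg/kg, and at 6 h the difference was −0.81.

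The 5 measured peroxisomal members gave mixed values. Hsd17b4, the bifunctional protein for straight and branched chains (mean log2 10.00), differed by −0.07 at 168 h and −0.19 at 336 h (SE 0.057, limma adjusted p = 0.226). Decr2, the peroxisomal dienoyl-CoA reductase (7.19), read 7.52, 7.54, 7.19, 7.44 and 7.597 in vehicle at 336 h and 6.89, 7.07, 7.08, 7.30 and 7.18 after 80 mg/kg, which overlap, with a difference of −0.35 (limma adjusted p = 0.262). Acox3, an oxidase for branched chains (5.64), and Ehhadh, the other bifunctional protein (5.65), lay near the filter. Their late differences of 0.31 and 0.07, and of −0.35 and 0.47, came with SEs of 0.37 for each at 336 h.

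Pecr, the peroxisomal trans-2-enoyl-CoA reductase of chain elongation (mean log2 9.30), differed by a like amount at every time. Vehicle arrays read 9.50, 9.35, 9.40 and 9.43 at 6 h and 9.49, 9.31, 9.20, 9.46 and 9.27 at 336 h, and the 80 mg/kg arrays 9.27, 9.32, 9.24, 9.39 and 9.39 at 6 h and 9.05, 9.24, 9.14, 9.26 and 9.17 at 336 h. The groups overlapped at both times, yet 20 of 21 arrays lay below the vehicle mean of their time. Single-time differences were −0.10, −0.14, −0.12 and −0.18, and the mean over the 4 times was −0.13 (SE 0.035, limma adjusted p = 0.0669). Against the same vehicle arrays, 10 mg/kg gave −0.14, −0.16, −0.08 and −0.13, with a mean of −0.12 (SE 0.035, limma adjusted p = 0.791) and again 20 of 21 arrays below.

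Split by location, the 24 mitochondrial members had medians of −0.01, −0.04, −0.10 and −0.17 at 6, 24, 168 and 336 h after 80 mg/kg, with 14, 13, 18 and 21 below 0. The 5 peroxisomal members had −0.10, 0.02, −0.07 and −0.18, with 4, 2, 4 and 3 below 0, and the 11 at both places or other membranes 0.09, 0.02, −0.12 and −0.12, with 4, 5, 9 and 7 below 0. At 336 h the groups did not overlap, with 80 mg/kg lower, for 8 mitochondrial members, 0 peroxisomal members and 2 of the remainder, where 1.23% of all probe sets were so. These 10 were Slc25a20, Cpt2, Crat, Acadvl, Acadm, Hadha, Eci1, Decr1, Ech1 and Acad8. At 168 h there were 3 (Slc25a20, Acadm and Decr1), against 0.311% of all probe sets. By an unadjusted p under 0.05 at 336 h, 10 of 24 mitochondrial, 3 of 5 peroxisomal and 2 of 11 other members were lower. Of all probe sets 3.24% were so, and the peroxisomal members were Hsd17b4, Decr2 and Pecr. The difference between the locations was not tested.

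**Figure D3:**
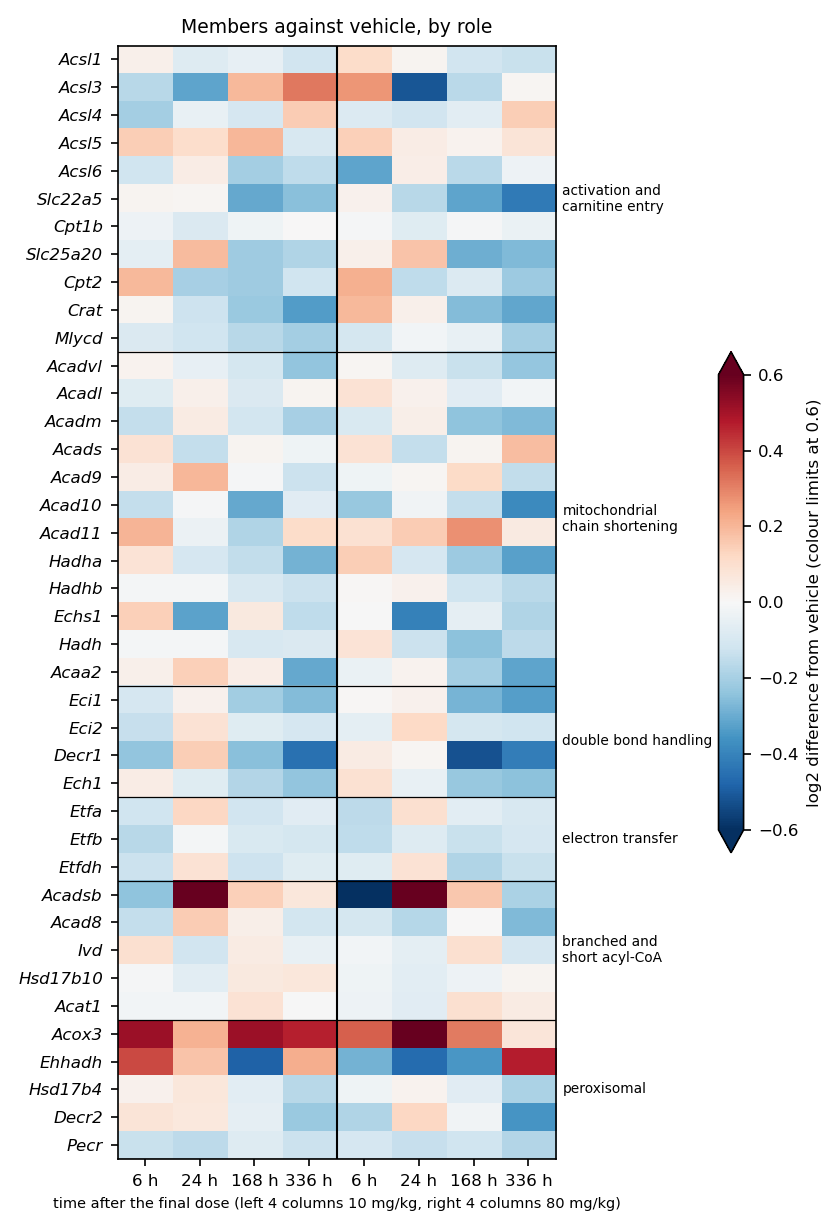
Rows are the 40 members in order of role, columns are times after the final dose for 10 mg/kg (left 4) and 80 mg/kg (right 4), and colour is the log2 difference from the vehicle group of that time, blue for lower and red for higher, with colour limits at 0.6. At 336 h 31 of 40 rows are below 0 for each dose, while the 6 and 24 h columns hold 20 to 22 such rows.

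The lower dose, against the same vehicle arrays, also had its members below 0 at the late times. For 10 mg/kg the members' medians were −0.01, −0.01, −0.09 and −0.11 at the 4 times, with 22, 21, 29 and 31 below 0 against 51.2%, 52.8%, 50.4% and 50.4% of all probe sets. The step from early to late at this dose changed with the arrays kept at 6 h, where 4 of the 5 were high-Myl7. Late minus early, the members' median was −0.10 with all arrays and −0.005 with the high-Myl7 ones left out. It was 0.002 when the high-actin ones were dropped as well. The early median (6 and 24 h) went from −0.02 to −0.07 and −0.09. Over the same settings the late minus early median for 80 mg/kg went from −0.11 to −0.12 and −0.09. For 10 mg/kg the reduced fits hold 1 treated array at 6 h, whose own median of −0.133 was the lowest of its group. They therefore cannot decide whether the step depended on the high-Myl7 arrays. With that 1 array left out instead, the late minus early median for 10 mg/kg was −0.104. No member was called at any time (0% of all probe sets at each) or over the 4 times (0.0107%), while 9 were lower at 336 h by an unadjusted p under 0.05, against 1.84%. For 6 members the 336 h groups did not overlap, with 10 mg/kg lower, against 0.392% of all probe sets (Crat, Acadvl, Acadm, Hadha, Decr1 and Ech1). Over the late times, again a contrast added later, 0 members were called, as were 0% of all probe sets, and Acadm differed by −0.15, Eci1 by −0.23 and Decr1 by −0.35, with limma adjusted p of 0.935, 0.690 and 0.827. At 336 h Decr1 and Crat differed from vehicle by −0.45 and −0.34 at 10 mg/kg and by −0.41 and −0.31 at 80 mg/kg. The 10 mg/kg arrays of Acadm at 336 h ran from 12.68 through 12.80 to 12.87, below all 5 vehicle arrays, and those of Decr1 from 11.34 through 11.58 to 11.93, also below them. Those of Eci1 ran from 11.42 through 11.46 to 11.64, and the highest passed the lowest vehicle array.

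Set directly against each other, the doses were not told apart for any member. Over the 4 times the differences of 80 from 10 mg/kg lay between −0.23 and 0.12, with a smallest limma adjusted p of 0.735 (0.188% of all probe sets were called), and 29 of 40 were below 0 against 49.9% of all probe sets. Their median of −0.02 turned to 0.08 on the deposited scale, where that of all probe sets was 0.09, and to 0.01 with median scaling. By time the medians were 0.01, −0.01, −0.03 and −0.03, and the one at 336 h turned to 0.04 with arrays scaled by their medians. The groups did not overlap for Acadl at 6 h, higher after 80 mg/kg (0.338% of all probe sets), and for Acad8 at 24 h, lower after 80 mg/kg (0.252%). These p-values do not show that the doses act alike.

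Whether the effect of a dose differed between the 4 times was tested with a moderated F test of the 3 differences between them. No member was called for 80 mg/kg, where 4 probe sets (0.0215%) were, and 9 members had an unadjusted p under 0.05, against 7.3% of all probe sets. For 10 mg/kg no member was called (0% of all probe sets), with 3 members against 4.7% unadjusted. As a single contrast, again added later, the late minus the early effect of 80 mg/kg was −0.23 for Acadm, −0.32 for Eci1 and −0.50 for Decr1 (limma adjusted p = 0.422, 0.217 and 0.251), and 0 members were called against 0.0268%. So the late timing of the shortfall is a description: a difference between late and early effects did not pass the test. The median of this contrast, −0.11, turned to 0.03 with arrays scaled by their medians, where the median of all probe sets was 0.08.

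**Figure D4:**
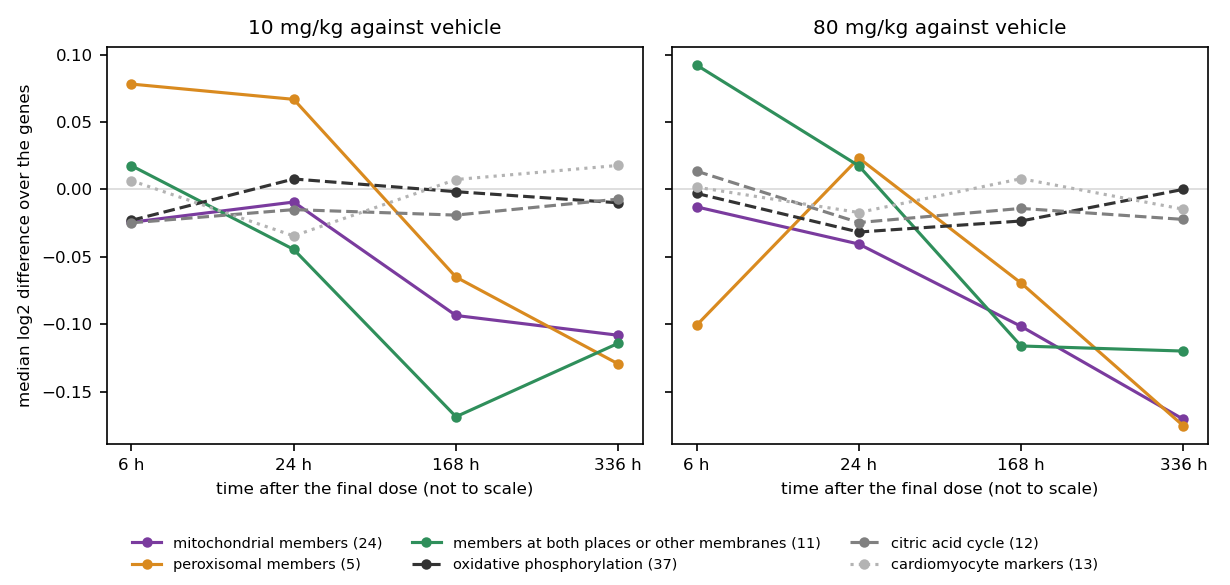
Median log2 difference from vehicle (vertical axis) over the genes of 6 lists at 6, 24, 168 and 336 h after the final dose (horizontal axis, not to scale), for 10 mg/kg on the left and 80 mg/kg on the right. After 80 mg/kg the mitochondrial members go from −0.01 at 6 h to −0.17 at 336 h, and oxidative phosphorylation (37 genes) and the citric acid cycle (12 genes) stand at 0.00 and −0.02 at 336 h.

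Other mitochondrial lists were set beside the members. After 80 mg/kg the 37 measured genes of oxidative phosphorylation had medians of −0.02 at 168 h with 23 below 0 and 0.00 at 336 h with 18 below 0. The 12 of the citric acid cycle had −0.01 with 6 below 0 and −0.02 with 8, and none of either list was called at these times. A list of other genes of the pathway, with 24 of 33 tested, had medians of −0.06 and −0.03, with 16 and 13 below 0 and none called at any time. In it Cpt1a, the liver form of the entry enzyme, differed by −0.16 and −0.09, and Abcd3, a peroxisomal importer of acyl-CoA, by −0.38 at 336 h (limma adjusted p = 0.469).

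Of 12 tested PPAR targets, all chosen with earlier results known, 1 was called: Cd36, which takes fatty acids into the cell, rose over the 4 times by 0.42 (SE 0.091, limma adjusted p = 0.00868). Its differences were 0.55, 0.51, 0.29 and 0.35. Pdk4, which holds back glucose oxidation, had 0.02, −0.49, −0.49 and −0.02, none called. Of the 12 targets 10 were below 0 at 168 h and 11 at 336 h.

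Of the markers of other cells, Fabp4 rose at every time after 80 mg/kg, by 1.004 at 6 h, 0.73 at 24 h and 0.94 at 168 h. The summed linear signal of the 8 measured adipocyte markers (of 9 listed, 4 above the filter) was 4074 to 4997 in vehicle and 7984 to 9493 after the drug at 6 h, and 3692 to 4264 against 6225 to 8838 at 168 h. At 336 h this sum was 4014 to 4270 in vehicle and 6550 to 10140 after 80 mg/kg, mostly from Fabp4, which rose by 1.04 (limma adjusted p = 2.0e-06). The other adipocyte markers above the filter, Cfd, Pck1 and Lipe, were not called in any contrast, and Adipoq, Plin1, Lep and Cidec were below the filter. Kdr, an endothelial receptor, rose by 0.48 (limma adjusted p = 0.00401), 1 of 7 endothelial markers, whose sum was 3848 to 4121 in vehicle and 3911 to 4987 after the drug. The 6 atrial markers summed to 849.5 to 2073 against 1439 to 4701, and the 8 macrophage markers to 1534 to 2124 against 1858 to 2172, both overlapping vehicle and with none called. The 13 cardiomyocyte markers summed to 158300 to 159900 against 155500 to 157700 at 336 h, without overlap, and to 157400 to 160300 against 157000 to 161200 at 168 h. No marker was at 0, and the part of these cells in the members' values was not tested.

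The array clusters were checked at 168 h, where each cluster held both groups. The members' median for 80 mg/kg against vehicle was −0.152 in the first (3 against 3 arrays), −0.078 in the second (2 against 1) and −0.091 in the third (1 against 1), with 30, 32 and 30 of 40 below 0. Decr1 differed by −0.65, −0.32 and −0.53 in the 3 clusters, Acadm by −0.27, −0.19 and −0.18, and Eci1 by −0.35, −0.26 and −0.11. The direction was the same within each cluster, in few arrays. The comparisons of 2 against 1 and of 1 against 1 arrays rest on 1 vehicle array each. At 336 h all arrays were in the third cluster, so the members' median of −0.158 there (5 against 5 arrays, 31 of 40 below 0) was within 1 cluster. With array cluster as a block, the members' median over both late times was −0.133. The clusters were drawn from these same signals, so agreement in direction cannot decide what part cluster has in the shortfall at 168 h, which was not tested.

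The vehicle hearts themselves differed between sampling times in 4 of the 40 members by the moderated F test, against 8.05% of all probe sets, a share near theirs. Acsl4, a synthetase that prefers arachidonic acid (mean log2 7.04; limma adjusted p = 0.00314), read 7.43, 7.46, 7.003 and 7.01 at 6 h, ran from 6.94 through 7.41 to 7.47 at 24 h, and read 7.44, 7.19, 6.63, 7.05 and 7.34 at 168 h and 6.62, 6.45, 6.496, 6.46 and 6.92 at 336 h. The 336 h arrays are the low ones and overlap those of 168 h. Acsl3, a synthetase of the endoplasmic reticulum and lipid droplets (6.64; limma adjusted p = 0.0129), had group means of 6.39 ± 0.22 (SD, n = 4), 6.96 ± 0.21 (SD, n = 6), 6.85 ± 0.18 (SD, n = 5) and 6.45 ± 0.16 (SD, n = 5) at the 4 times. At 24 h its vehicle arrays ran from 6.59 through 7.04 to 7.16 and the 80 mg/kg arrays read 6.27, 6.78, 6.52, 6.59 and 6.08, a difference of −0.51 (SE 0.14, limma adjusted p = 0.144).

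Crat, which makes acetylcarnitine in mitochondria and peroxisomes (mean log2 10.48; limma adjusted p = 0.0281 between times), read 10.27, 10.38, 10.41 and 9.81 in vehicle at 6 h and 10.58, 10.08, 11.04, 9.96 and 10.40 at 168 h, and ran from 10.21 through 10.45 to 10.73 at 24 h. At 336 h it read 11.06, 11.16, 11.13, 11.19 and 11.19, above every other vehicle array. After 80 mg/kg the 336 h arrays read 10.67, 10.84, 10.99, 10.80 and 10.88, below vehicle without overlap, and 10 mg/kg ran from 10.71 through 10.81 to 10.94. Acad9 (limma adjusted p = 0.0494) was higher in vehicle at 336 h, at 9.44, 9.45, 9.40, 9.71 and 9.06, than its means of 9.06, 9.06 and 8.94 at the earlier times, and the arrays overlapped. With array cluster as a block none of the 4 was called.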

How the data were processed

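Total RNA of 62 samples of rat cardiac muscle was measured on Affymetrix arrays, 1 per sample. The deposited table holds linear intensity values, 1 for each probe set and array, which the authors made with GCOS and MAS5 per the submitters' processing notes. Their versions and scaling target are not stated there. Each array was reduced on its own, so the precision is limited by the number of arrays. Of 31099 probe sets, 57 controls were left out. Log2 signals of the deposited intensities were quantile normalized (limma 3.58.1, R 4.3.3), 18625 probe sets at or above the 40th percentile were kept, and 12 group means were fitted with lmFit and eBayes over all samples (50 residual degrees of freedom, two-sided). Quantile normalization sets aside any shift common to all probe sets. Within groups, array pairs correlated at 0.891 to 0.962 (Spearman), and 0 pairs were identical.

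The platform annotation gave gene names: 20826 probe sets name 1 gene, 436 more than that. The members, the lists and the added contrasts were chosen with earlier results of these data known. Per-sample values are given for members called in any of 15 contrasts or 3 F tests, for those with the smallest unadjusted p (the 4 smallest in the mean-of-4-times contrast of either dose against vehicle, 2 at each time for 80 mg/kg, and 1 peroxisomal member), and for members whose groups did not overlap or whose overlap is described. Tested on simulated data over 18625 probe sets, the fit recovered 1, 12, 34 and 49 of 50 changes of 0.25, 0.5, 1 and 2 log2 units for 80 mg/kg at 168 h, and 12, 34, 49 and 50 of 50 for the mean of the 4 times. The changes were put on probe sets drawn from all those tested, with independent noise in each array. These rates are therefore not those of the members, whose spread differs. Alternatives were other scaling, filters, array weights, blocks, covariates, left-out arrays, arrays of 1 time only, and the mean of a gene's probe sets.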

Additional observations from a re-analysis of the deposited data

Results flagged for a closer look

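In 144 sets of values, each from a group of 4 to 6 arrays, 3 held an array far from the others by Dixon's criterion, which chance alone meets in about 1 of 20 groups. For Acsl4 the lowest of the 6 vehicle arrays at 24 h was 6.94, with the others at 7.30 to 7.47. For Eci1 the highest of the 5 arrays of 10 mg/kg at 24 h was 11.79, with the others at 11.47 to 11.55. The median over the 40 members was −0.13 in 1 array of 10 mg/kg at 6 h, with the others of that group from 0.001 to 0.025. It was the only array of that group without a high Myl7 signal (log2 6.08, against 9.32 to 12.22 in the other 4), and the part of atrial tissue in this value was not tested.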

How the results depend on the processing

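No result turned its direction among those that were called. For 80 mg/kg against vehicle over the 4 times, the count of called members went from 1 to 0 on the deposited scale, with median scaling, with no filter, without the high-Myl7 arrays, and without both the high-Myl7 and high-actin arrays (chosen after seeing the data). It was 2 with the filter at the 60th percentile, 3 without the high-actin arrays, 3 with the late times only, 0 with 6 and 24 h only, and 0 to 2 with each array left out. At 336 h it went from 0 to 4 with array weights, 1 with array cluster as a block and 2 with control probe covariates, and at 24 h from 0 to 1 with median scaling. For vehicle between the times it went from 4 to 0 on the deposited scale and with cluster as a block, 2 with median scaling, with no filter and without the high-actin arrays, 7 with the stricter filter, 14 with array weights, 1 without both kinds of array, and 2 to 8 with each array left out, 2 each without vehicle replicates 2, 3 or 5 of 336 h, 7 without replicate 3 of 168 h and 8 without replicate 2 of 24 h. The number of all probe sets called changed with the setting too, so these counts are not a result about the members alone. In the late contrast 83 probe sets were called in the main fit (3 members). There were 172 with array weights (6), 143 with cluster as a block (6) and 123 with control probe covariates (4). With median scaling there were 57 and on the deposited scale 8, with 0 members in each. The causes were not tested.

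Replicate numbers did not pair the samples (same-numbered samples correlated at −0.257 to 0.338 over all pairs), and with the replicate block the count over the 4 times was 2 (Acadm and Pecr). The median over members moved by more than the replicate spread in 20 alternative values and by less in 172. Late differences of Acadm, Eci1 and Decr1 stayed called in 10, 9 and 10 of 12 other settings. Each of these calls was lost on the deposited scale and with median scaling, the settings that replaced quantile normalization. That of Eci1 was also lost with its probe sets averaged. Leaving out the high-Myl7 or high-actin arrays removed no array of these times, so those settings could not move the differences.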

Other observations

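The dimmer probe sets of the synthetases Acsl5 and Acsl1 stood higher early after 80 mg/kg. Over 6 and 24 h, a contrast added after seeing the data, the second probe set of Acsl5 differed from vehicle by 0.42 (limma adjusted p = 0.285) and that of Acsl1 by 0.31 (limma adjusted p = 0.621), neither called.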
